A study of Homo sapiens with 2 samples.

Results

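The mitochondrial protein import machinery was described here as 36 genes, chosen by name: every protein-coding gene of GENCODE v44 whose symbol begins with TOMM or TIMM and holds no hyphen, together with PMPCA, PMPCB, MIPEP, SAMM50, MTX1, MTX2, DNAJC19, PAM16, GRPEL1 and HSPA9. They were 36 of 59026 genes, and of 19885 protein-coding genes, that could be matched to the deposited transcript tables. The 2 libraries were made from rRNA-depleted total RNA of untreated HEK293 Flp-In T-Rex cells, an established human embryonic kidney line with an integration site for tetracycline-controlled transgenes, grown in high glucose medium with foetal calf serum. They form 1 group, with replicates numbered 1 and 2 in the labels. Whether the replicates were separate cultures was not given, so the spread between them may be technical.

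Almost all mitochondrial proteins are made in the cytosol and imported. The TOM complex of the outer membrane is the common entry gate: TOMM20, TOMM22 and TOMM70 are receptors, TOMM40 forms the channel, and TOMM5, TOMM6 and TOMM7 are small subunits. Precursors with an N-terminal presequence pass on to the TIM23 complex of the inner membrane and are pulled into the matrix by a motor built on HSPA9 (mtHsp70), after which the presequence is removed by peptidases. Carrier proteins of the inner membrane are escorted by the small TIMs to the TIM22 complex, and beta-barrel proteins are inserted into the outer membrane by the sorting and assembly machinery around SAMM50. METTL8, the tRNA methyltransferase the libraries were made to study, carries a presequence and is itself a client of this route, and antibodies against TIM23 and TIM44 served the study as markers of compartments within the organelle.

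The libraries held 25158962 and 27143860 estimated counts, of which the import genes took 72205 (0.287%) and 72547 (0.267%). Of the 4 genes taken as features of HEK293 cells, NEFL had 1765 and 1993 estimated counts, INA 336 and 425, PAX2 32.0 and 54.0, and NEFM 13.7 and 20.2. Of 6 genes of other lineages, PTPRC, ALB, CD3E and INS were at 0 in both libraries, which allows up to 0.119 and 0.111 counts per 1000000 (3 counts a library, for counting error only), whereas HBB had 169 and 196 estimated counts and COL1A1 had 147 and 314. In such bulk libraries, more cells with a transcript and more transcript per cell cannot be told apart.

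Levels of different genes were compared per length. The length-normalised level of a gene is the sum over its transcripts of the estimated count divided by the length of that transcript in GENCODE v44, and the levels of all matched transcripts of a library sum to 1000000. Errors are SD over n = 2 libraries. No test was run, since there is 1 group and an exact two-sided sign-flip test of 2 libraries cannot go below p = 0.5. The order of a pair of genes was taken as larger than the spread when both libraries gave it and the means differed by more than the sum of the SDs. This held for 512 of the 595 pairs of import genes (86.1%), beside 89.2% of all pairs of protein-coding genes with at least 10 estimated counts in both libraries.

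Short coding stretches that mark the roles of the small TIMs, the peptidases and the motor are shown first, since the transcripts counted below differ in whether they hold them. The small TIMs are built on a twin CX3C motif, in which a pair of cysteines 3 residues apart occurs in each of 2 helices. The canonical coding sequences of GENCODE v44 were searched for 2 such pairs of cysteine codons (TGC or TGT, in frame, with 3 codons between them) lying 10 to 20 codons apart. In 19755 canonical coding sequences the arrangement occurred in 316 (1.60%), and among the import genes it was found in TIMM8A, TIMM8B, TIMM9, TIMM10, TIMM10B and TIMM13. The first and the second pair of each are given 5′ to 3′ on the coding strand, with the cysteine codons in capitals:
TIMM8A, first pair, codons 43 to 47: TGTtgggagaagTGC
TIMM8A, second pair, codons 62 to 66: TGTtttgtgaacTGC
TIMM8B, first pair, codons 36 to 40: TGTtgggataaaTGT
TIMM8B, second pair, codons 55 to 59: TGTctctccagcTGT
TIMM9, first pair, codons 28 to 32: TGCtttttggacTGT
TIMM9, second pair, codons 48 to 52: TGTtcagaacatTGC
TIMM10, first pair, codons 29 to 33: TGCcaccggaagTGT
TIMM10, second pair, codons 50 to 54: TGCctggaccgaTGT
TIMM10B, first pair, codons 28 to 32: TGCttccagcgcTGT
TIMM10B, second pair, codons 48 to 52: TGTctgcacagcTGT
TIMM13, first pair, codons 46 to 50: TGTttccggaagTGT
TIMM13, second pair, codons 65 to 69: TGCatcgccatgTGC

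All 12 stretches lie in coding exons of GRCh38. On chromosome 11 these were chr11:6481799-6481813 (exon 2) and chr11:6482051-6482065 (exon 3) in TIMM10B on the plus strand, chr11:57528891-57528905 and chr11:57528828-57528842 (both exon 3) in TIMM10, and chr11:112085427-112085441 and chr11:112085370-112085384 (both exon 2) in TIMM8B. TIMM9 had its pairs at chr14:58410882-58410896 (exon 5) and chr14:58409148-58409162 (exon 6), and TIMM13 at chr19:2427295-2427309 (exon 2) and chr19:2427029-2427043 (exon 3). The first pair of TIMM8A is split between exons 1 and 2, from chrX:101348538 down to chrX:101346652, and the second lies at chrX:101346595-101346609. All but TIMM10B are on the minus strand.

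The catalytic beta subunit of the matrix processing peptidase, PMPCB, binds its zinc through an inverted HXXEH motif, which the alpha subunit PMPCA lacks. The intermediate peptidase MIPEP has the HEXXH order, and DNAJC19, a J protein of the motor, has the HPD tripeptide by which J proteins activate Hsp70, which its partner PAM16 lacks. The codons of the motif residues are in capitals:
PMPCB, HXXEH, codons 101 to 105: CACtttctgGAGCAT
MIPEP, HEXXH, codons 495 to 499: CATGAAatgggaCAT
DNAJC19, HPD, codons 90 to 92 with 1 codon on either side: aatCATCCTGACaaa

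These stretches lie at chr7:103299503-103299517 (exon 3 of PMPCB, plus strand), chr13:23837598-23837612 (exon 13 of MIPEP, minus strand) and chr3:180985927-180985941 (exon 5 of DNAJC19, minus strand). By letters alone the codon order was found in 2.71% (HXXEH), 3.49% (HEXXH) and 5.59% (HPD) of canonical coding sequences. PMPCB also held an HPD match, at codons 307 to 309, and neither PMPCA nor PAM16 held the motif of its partner.

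As a list, the import genes lay high among expressed genes. Their median level was 35.6, against 9.57 for the 13755 protein-coding genes with at least 10 estimated counts in both libraries, and 31 of the 36 were above that median, 25 in the top 25 percent and 14 in the top 10 percent. Only TOMM20L did not reach the minimum. For 78 mitochondrial ribosomal protein genes, which encode the ribosome of the organelle, the median was 38.3, and it was 27.8 for 17 other genes of the import pathway. The import genes summed to 1882 in replicate 1 and 1714 in replicate 2, or 1798 ± 118, and made up 0.423% of the level of all protein-coding genes.

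**Figure D1:**
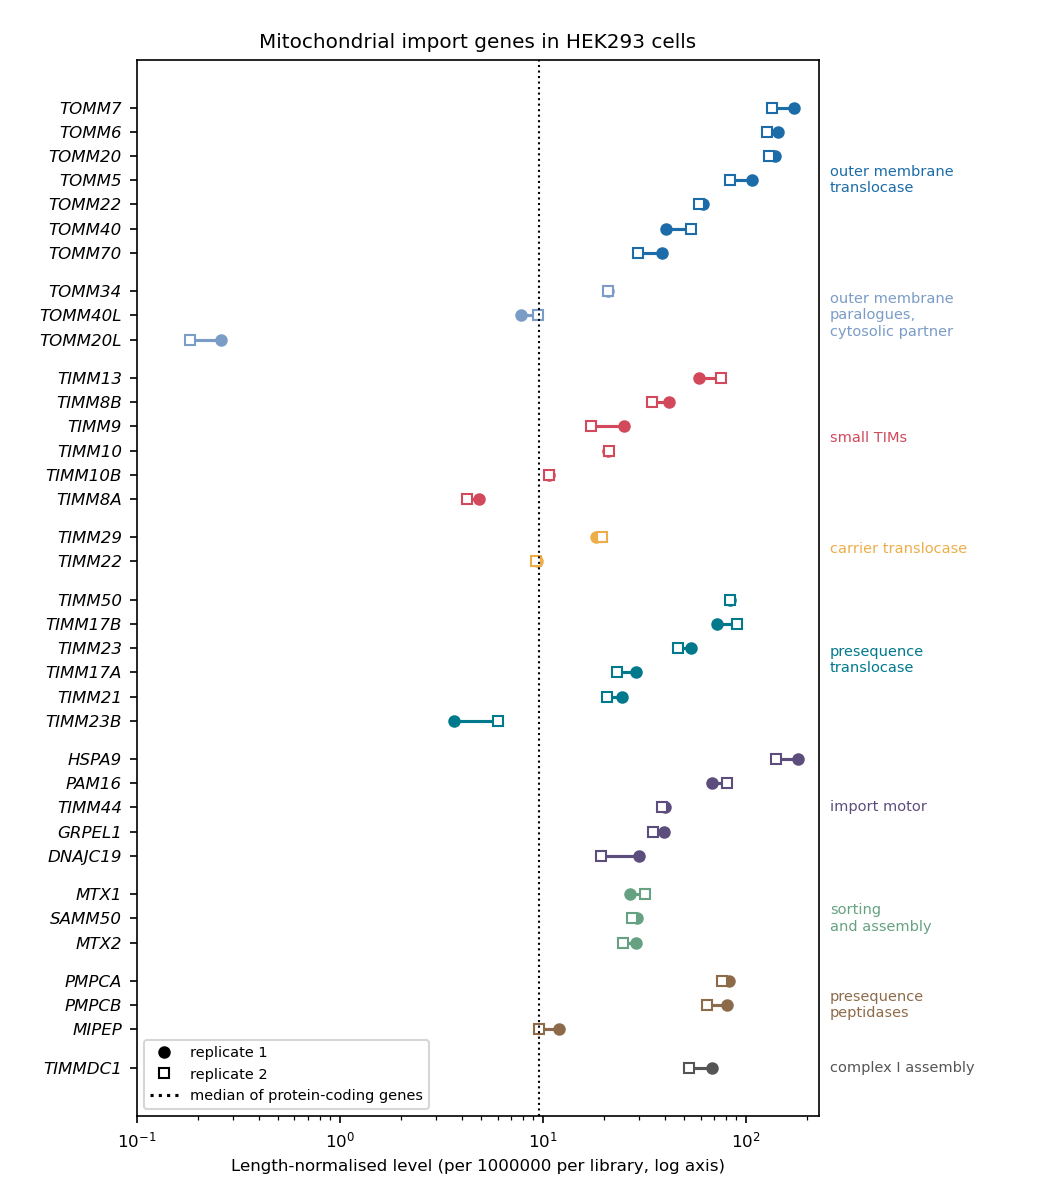
Length-normalised level (per 1000000 per library, log axis) of the 36 import genes grouped by role, with replicate 1 as filled circles, replicate 2 as open squares and the median of protein-coding genes as a dotted line. HSPA9, TOMM7, TOMM6 and TOMM20 stand at the top, with means from 161 to 134, while TOMM20L, with about 3 counts a library, lies below 0.3 and TIMM23B and TIMM8A lie between 3 and 7.

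The outer membrane translocase held the largest share of these transcripts, 36.8% ± 1.07 of the summed level of the import genes, with 7 genes at 662 ± 62.8. Its small subunits TOMM7 and TOMM6 and the receptor TOMM20 had its highest levels, which could not be ordered among neighbours, and the small subunit TOMM5 lay below them, though not separably from TOMM20 with protein-coding transcripts only or by canonical length. TOMM7 was at 174 in replicate 1 and 135 in replicate 2, TOMM6 at 145 and 127, and TOMM5 at 108 and 83.5. All 3 small subunits have short messages (434, 565 and 706 nt), to which a division by length gives much weight: on the normalised counts of the authors, without length, TOMM7 was 11th, TOMM6 8th and TOMM5 12th of the 36. TOMM6 shares 637 nt of exon on the same strand with the gene ENSG00000124593 (124 and 135 estimated counts).

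Among the receptors both libraries gave the same order of levels. TOMM20, which binds presequences, was at 139 and 129.7, TOMM22, the central receptor that docks the others, at 61.9 and 58.8, and TOMM70, the receptor for carriers and chaperone-bound precursors, at 38.6 and 29.5. TOMM20 was 2.24- and 2.21-fold above TOMM22 and 3.601- and 4.404-fold above TOMM70, on the log2 scale by 1.15 ± 0.02 and 1.99 ± 0.21 (1.92 and 1.32 by normalised counts), both larger than the spread. The order of TOMM22 and TOMM70 depended on the measure: by normalised counts TOMM70 was above (4041 and 3022 against 2432 and 2194), and with protein-coding transcripts only TOMM22 (31.5 and 27.8) and TOMM70 (34.9 and 26.5) were not separable. The channel gene TOMM40 (chr19:44890569-44903689, plus strand) was at 40.4 and 54.1, and its values overlapped those of TIMM23 (54.0 and 46.5).

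The 2 libraries assigned TOMM40 to different transcripts. TOMM40-201 had 0 estimated counts in replicate 1 and 1247 in replicate 2, and TOMM40-202 had 1743 and 1011. Both have 1083 nt of coding sequence, and only 50 of the 1658 words of 50 nt in TOMM40-201 are absent from TOMM40-202. Without transcripts below 1 count in either library, the mean level of TOMM40 went from 47.2 to 33.2.

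The paralogues of the outer membrane were low. TOMM40L, a second channel gene, was at 7.87 and 9.54, below TOMM40 by 5.13- and 5.67-fold (log2 2.43 ± 0.10, or 3.10 with protein-coding transcripts only), and TOMM34, a cytosolic partner of the chaperones that deliver precursors, was at 20.93 and 20.90. TOMM20L had 3 and 3.27 estimated counts, at the limit of 3 counts taken for absence, so its level of 0.261 and 0.184 says no more than that it was lowest of the 36. It lies on the opposite strand of TIMM9 and shares 174 nt of exon with it.

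**Figure D2:**
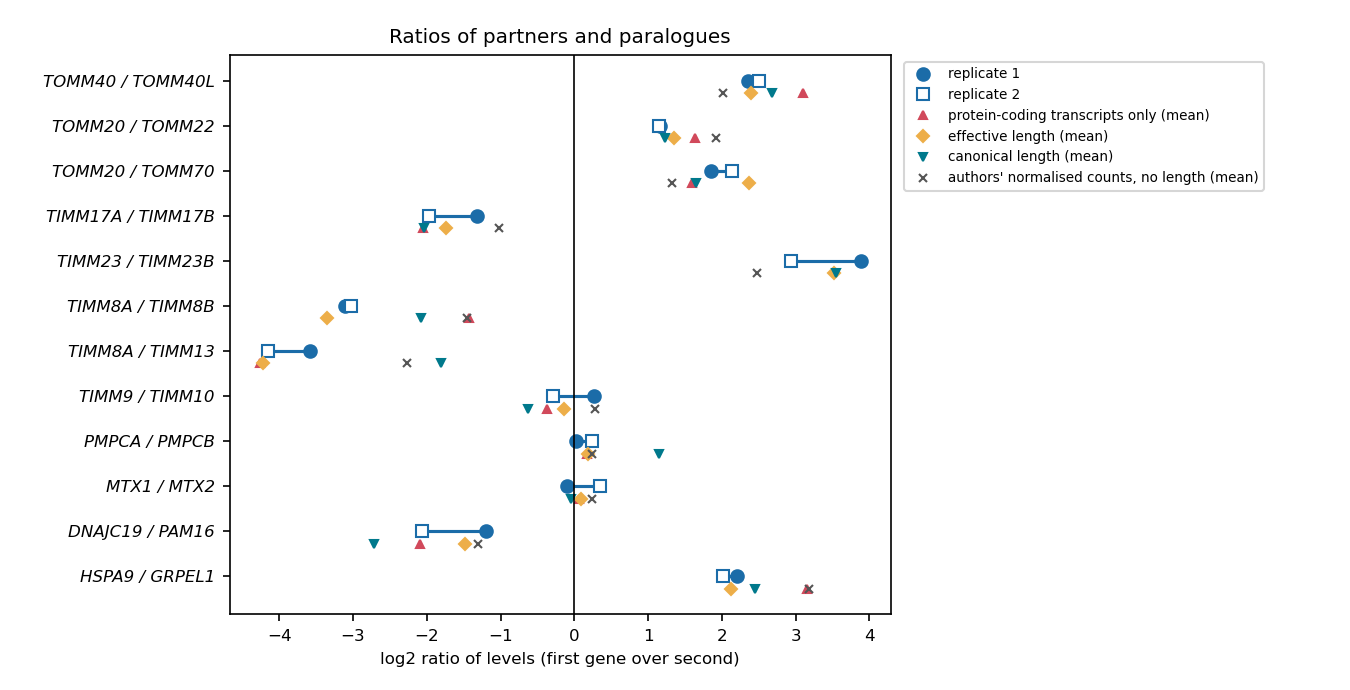
Log2 ratio of levels for 12 pairs of partners or paralogues, first gene over second, with replicate 1 as filled circles and replicate 2 as open squares, and below them the mean under protein-coding transcripts only (up triangles), effective length (diamonds), canonical length (down triangles) and normalised counts without length (crosses). TIMM9 over TIMM10 and MTX1 over MTX2 lie on both sides of 0, PMPCA over PMPCB lies near 0 except by canonical length, and the other 9 keep their side.

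The small TIMs are partners in 2 kinds of hexamer of the intermembrane space, TIMM9 with TIMM10 and TIMM8A with TIMM13. Together the 6 genes stood at 163 ± 0.819. TIMM9 was at 25.3 and 17.3 and TIMM10 at 21.1 and 21.2, so their log2 ratio was 0.26 in replicate 1 and -0.29 in replicate 2 and no order was seen. The other pair was far from equal: TIMM8A (Xq, chrX:101345661-101348742, minus strand), the gene of deafness-dystonia syndrome, was at 4.88 and 4.25, whereas TIMM13 was at 58.7 and 75.6, 12.02- and 17.8-fold higher. The autosomal paralogue TIMM8B, at 42.1 and 34.8, was 8.62- and 8.18-fold above TIMM8A. Both orders held under each alternative measure, but the sizes did not: TIMM8A over TIMM13, -3.87 ± 0.40 on the log2 scale, was -1.80 by canonical length and -2.26 by normalised counts, and TIMM8A over TIMM8B, -3.07 ± 0.05, was -1.42 with protein-coding transcripts only, -1.45 by normalised counts and -2.08 by canonical length. TIMM10B, which ties the hexamer to the TIM22 complex, was at 10.740 and 10.743.

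Not all of these transcripts carry the cysteine codons printed above in an annotated coding sequence. The printed stretches were sought by letters in each annotated coding sequence, and the reading frame was not checked. In TIMM10 and TIMM13 every listed transcript held both pairs in its coding sequence. In TIMM8A a single transcript did, the canonical TIMM8A-201, with 17.2 estimated counts in each library, or 11.1% and 11.4% of the level of the gene. The leading transcript TIMM8A-202 (246 and 236 estimated counts, 65.3% and 64.1% of the level) has a coding sequence of 144 nt that does not hold both pairs. TIMM8A-203 and TIMM8A-204 were each seen in 1 library only, at 45.05 and 46.8 estimated counts.

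For TIMM8B the transcripts with both pairs in the coding sequence held 20.8% and 28.2% of the level. Sought anywhere in the transcript, both pairs were in all 4 listed transcripts of TIMM8B, with 100% of the level in each library. Its leading transcript, TIMM8B-202 (581 and 504 estimated counts), has no defined coding sequence and holds an exon of 344 nt of its own at chr11:112085967-112086310. That gene overlaps NKAPD1 on the opposite strand over 351 nt of exon (1467 and 1169 estimated counts), and reads of the strands cannot be separated here, as the strand setting was not given. TIMM9 had both pairs in coding sequence for 43.3% and 34.5% of its level, and anywhere in the transcript for 62.2% and 59.5%. Its leading transcript TIMM9-208 (180 and 148 estimated counts) did not hold them. TIMM10B had them in 64.9% and 62.3%, and in 64.9% and 51.2% without the decay target TIMM10B-205.

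The carrier translocase stood at 28.3 ± 0.745 over 2 genes, against 163 over 6 genes for the small TIMs that feed it. The median gene levels of these groups were 14.1 and 21.2. AGK, placed here among the other genes of the pathway and outside this sum, was at 31.8 and 29.3. TIMM22, the pore subunit, was at 9.36 and 9.25, and TIMM29, a metazoan subunit, at 18.4 and 19.6. Both libraries placed TIMM29 above TIMM22 by more than the spread, but with protein-coding transcripts only the difference (9.74 and 13.7 against 9.36 and 9.25) did not exceed it, and by normalised counts the order turned (549 and 627 against 825 and 801). TIMM22 has 1 listed transcript and shares 153 nt of exon with ABR on the opposite strand (2234 and 3081 estimated counts).

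In the presequence translocase, TIMM50, the receptor that takes precursors from TOM, was at 84.3 and 83.7, not separable from TIMM17B. The order of TIMM50 and TIMM17B depended on the measure. TIMM50 was lower with protein-coding transcripts only (20.6 and 26.8 against 70.8 and 89.7) and by canonical length (39.2 and 42.5 against 95.1 and 118). By normalised counts it was higher (4877 and 5232 against 1920 and 2358). TIMM21, which links the complex to TOM and to the respiratory chain, was at 24.7 and 20.7. The core subunit TIMM17 has 2 genes. TIMM17B, on the X chromosome, was at 72.2 and 90.9 and TIMM17A, whose protein is known to turn over quickly under stress, at 28.8 and 23.2. TIMM17B was above TIMM17A in both libraries, by 2.50- and 3.91-fold (log2 1.65 ± 0.45 in favour of TIMM17B), and by normalised counts TIMM17A over TIMM17B was at -1.02.

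TIMM23, the other core subunit, was at 54.0 and 46.5, and its near copy TIMM23B at 3.65 and 6.05, a ratio of 14.8 in replicate 1 and 7.68 in replicate 2 (log2 3.41 ± 0.67, or 2.48 by normalised counts). The genes lie on the same chromosome, TIMM23 at chr10:45972489-46003742 and TIMM23B at chr10:49942049-49974850, both on the plus strand. Of the 627 coding nt of TIMM23, 514 could be aligned to TIMM23B-201, and 504 of those were identical (98.0%). The 10 differences were A25G, G41T, G68A, C128G, T180C, C208T, A246G, T273G, A334G and T405G, where the TIMM23 base comes first and positions count from 1 at the A of the start codon of TIMM23-201. For the first and the seventh of them, the sequences around the difference, in capitals, show how small the contrast is for a read:
TIMM23, position 25: gggaagcggcAacaaaaccac
TIMM23B, same place: gggaagcggcGacaaaaccac
TIMM23, position 246: cgattggaggAtgttgcatga
TIMM23B, same place: cgattggaggGtgttgcatga

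The TIMM23 windows lie at chr10:45972639-45972659 (exon 1) and chr10:45982593-45982613 (exon 3). Over the whole transcript, 952 of the 1141 words of 50 nt in TIMM23-201 (83.4%) are absent from TIMM23B-201, so most words of that length tell the transcripts apart. TIMM23 was listed with 1 transcript, whose whole level was protein-coding. TIMM23B had none: its listed transcripts were TIMM23B-201 (215 and 311 estimated counts), annotated to nonsense-mediated decay, and TIMM23B-202 (15.6 and 68.2), with no defined coding sequence. The canonical model of GENCODE v44, TIMM23B-203 (2495 nt), is protein-coding but was not listed. Only 49 of its 2446 words of 50 nt are absent from TIMM23B-201, so its reads could be counted there. The protein-coding share of 0% was thus fixed by the list. Reads that TIMM23B shares with the read-through gene TIMM23B-AGAP6 (22.5 and 34.3 estimated counts, 9.31% of its count) are an added uncertainty.

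HSPA9, the matrix Hsp70, was at 181 and 141, the highest of the motor. It also had the highest mean of the 36, but not by more than the spread over TOMM7, and TOMM7 was above it in mean with protein-coding transcripts only, by effective length and by canonical length, the last by more than the spread (217 and 166 against 148 and 118). Its nucleotide exchange factor GRPEL1 was at 39.5 and 34.8, a ratio of 4.59 and 4.05 (log2 2.11 ± 0.13), which grew to log2 3.15 with protein-coding transcripts only and 3.18 by normalised counts. TIMM44, which tethers the motor to the channel, was at 39.99 and 38.6. The J protein DNAJC19 was at 29.9 and 19.4 and its J-like regulator PAM16 at 68.7 and 81.0, so that PAM16 was 2.30- and 4.17-fold higher (DNAJC19 over PAM16, log2 -1.63 ± 0.61, and -2.72 by canonical length). PAM16 shares 522 nt of exon with the read-through gene CORO7-PAM16 on the same strand (19.2 and 63.2 estimated counts). By estimated count, with no length, HSPA9 stood out more: 15172 and 13694, next to 9485 and 8213 for TOMM20.

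Of the 35 genes with the minimum count, DNAJC19 had the widest gap between libraries in the share of its level in protein-coding transcripts, 83.1% and 48.7%. DNAJC19-211, a short protein-coding model of 324 nt, had 146 estimated counts in replicate 1 and 22.4 in replicate 2, while DNAJC19-210, annotated to nonsense-mediated decay, had 5.22 and 87.7. The share of its level in transcripts whose coding sequence holds the letters of the printed HPD stretch, reading frame not checked, was 82.4% and 46.4%. Anywhere in the transcript, the stretch was held by 97.8% and 96.7% of the level of DNAJC19. Among pseudogenes of the import genes, DNAJC19P9 was the 1 with at least 10% of the count of its parent (51.7 and 43.9 estimated counts, 11.03%). Of 37 pseudogenes of 13 import genes, 18 were at 0 in both libraries.

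The sorting and assembly genes were close to one another. SAMM50, the beta-barrel insertase, was at 29.1 and 27.5, and its cytosolic-side partners MTX1 and MTX2 were at 27.04 and 31.8, and at 29.0 and 24.9. MTX1 over MTX2 was -0.10 and 0.35 on the log2 scale, so no order was seen. In MTX2 the transcript MTX2-205 was at 0 in replicate 1 and had 151 estimated counts in replicate 2.

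The processing peptidase subunits, which form a heterodimer, were also alike: PMPCA was at 82.4 and 76.2 and PMPCB at 81.2 and 64.5, a log2 ratio of 0.13 ± 0.15, which did not exceed the spread. MIPEP, which removes a further octapeptide from some precursors, was at 12.1 and 9.63, under both. PMPCB overlaps DNAJC2 on the opposite strand over 1400 nt of exon (817 and 655 estimated counts). TIMMDC1, chosen by its symbol and known as an assembly factor of complex I rather than an import subunit, was at 68.0 and 52.9.

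Neighbours in the order of levels were mostly not separable. Of 35 neighbouring pairs, 8 differed by more than their spread: TOMM20 over TOMM5, TOMM22 over TIMM23, TIMM10 over TOMM34, TOMM34 over TIMM29, TIMM29 over MIPEP, TIMM10B over TIMM22, TOMM40L over TIMM23B, and TIMM8A over TOMM20L, of which TOMM20L is at the limit of counting. This order belongs to the measure used: 4 of the 8 kept their direction and call with protein-coding transcripts only, 5 by normalised counts, 7 by effective length, 4 by canonical length and 6 with transcripts of at least 1 count in both libraries, and only TIMM8A over TOMM20L did so in all 5. TOMM22 over TIMM23 turned with protein-coding transcripts only and by canonical length, TIMM10 over TOMM34 and TIMM10B over TIMM22 by canonical length and normalised counts, and TOMM34 over TIMM29 by effective length, each by more than the spread. From TOMM5 to TOMM22, with mean levels from 95.5 to 60.3, no neighbouring pair differed by more than its spread. The same held from TIMM23 to TIMM10, from 50.2 to 21.1. An SD of 2 libraries can by coincidence lie below counting error, so calls on small differences are weak. TIMM10, with 305 and 357 estimated counts, was at 21.09 and 21.18, and TOMM34 at 20.93 and 20.90. Of the 12 pairs of partners and paralogues, 9 had an order larger than the spread. This was no more often than for all pairs of import genes (86.1%) or of protein-coding genes (89.2%).

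Annotation splits the transcripts of a protein-coding gene into protein-coding ones and others, such as targets of nonsense-mediated decay, retained introns and models without a defined coding sequence. The median share of the level in protein-coding transcripts was 77.0% over the import genes, 88.9% over the mitochondrial ribosomal protein genes and 82.5% over protein-coding genes with the minimum count. In 8 of 35 import genes (22.9%) protein-coding transcripts held under 50% of the level in both libraries, beside 14.2% of all such genes. These were TIMMDC1 (3.44% and 5.77%), TIMM23B (0% and 0%), TIMM8B (20.8% and 28.2%), TIMM50 (24.5% and 32.1%), GRPEL1 (34.5% and 30.1%), TIMM21 (37.7% and 27.2%), TIMM44 (45.01% and 31.6%) and PMPCB (44.7% and 35.7%). TOMM6, TOMM34, TIMM10, TIMM13, TIMM22 and TIMM23 were at 100% in both. For TIMM23B no protein-coding transcript was listed, and for TOMM34, TIMM10, TIMM13, TIMM22 and TIMM23 no other kind, so these shares were fixed.

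**Figure D3:**
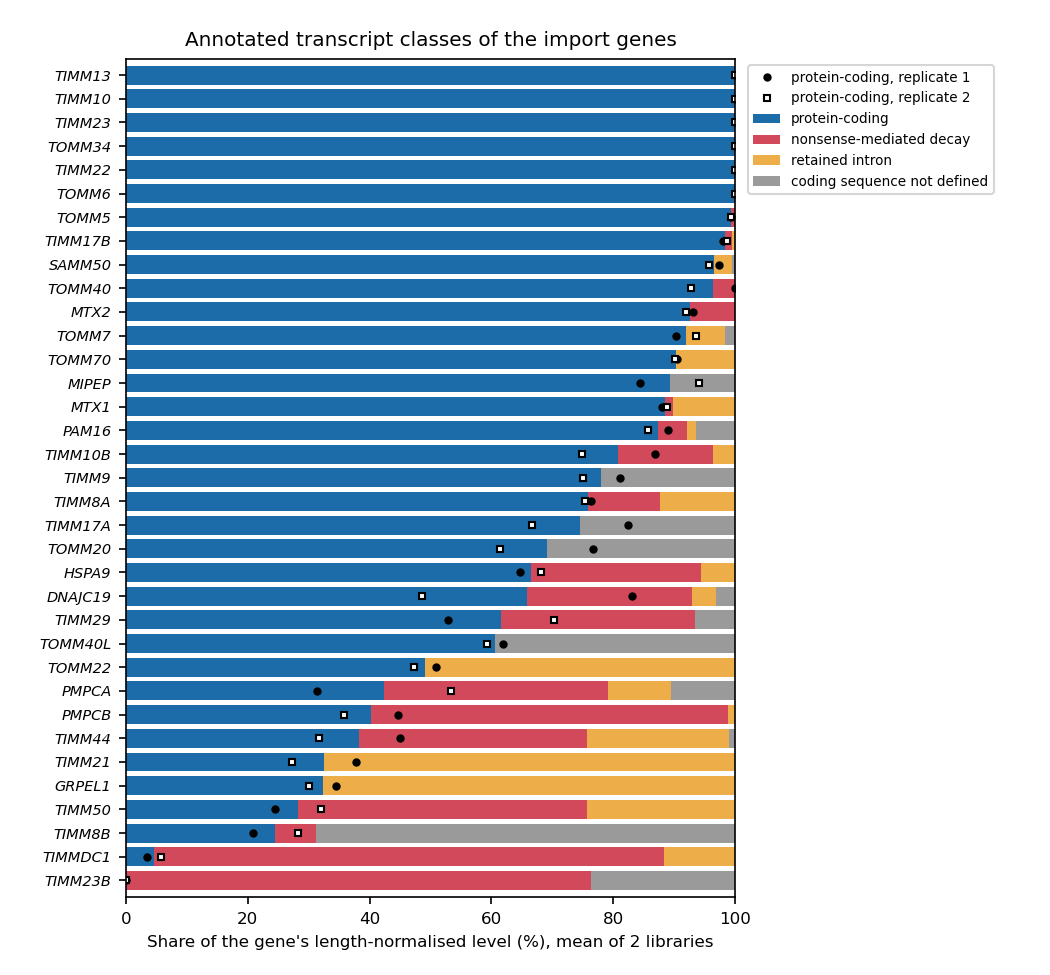
Share of each gene's length-normalised level (%) in transcripts annotated as protein-coding (blue), nonsense-mediated decay (red), retained intron (yellow) or without a defined coding sequence (grey), mean of 2 libraries, for the 35 genes with the minimum count, with the protein-coding share of replicate 1 as filled points and of replicate 2 as open squares. Shares run from 100% for TIMM13 to 0% for TIMM23B, which has no protein-coding transcript listed. DNAJC19 and PMPCA show the widest gaps between libraries.

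A share of level gives weight to short transcripts. HSPA9-208, of 482 nt, had 660 and 482 estimated counts beside 13539 and 12435 for HSPA9-201, or 4.35% and 3.52% of the count, yet 28.8% and 24.2% of the level. By normalised counts without length, 5 genes remained under 50% in both libraries, namely TIMMDC1, TIMM23B, TIMM8B, TIMM21 and TIMM44, and TIMM50, GRPEL1 and PMPCB did not. The share of all genes given above holds for the length-normalised level only, and none is given by normalised counts.

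In 4 of 32 import genes with more than 1 transcript listed and the minimum count (12.5%), beside 8.16% of all such genes, the leading transcript by count was not annotated protein-coding in either library. TIMMDC1 (chr3:119498547-119525090, plus strand) was led by TIMMDC1-201 (647 and 733 estimated counts), a decay target that skips 1 exon of the canonical model, while the canonical TIMMDC1-208 had 8.08 and 16.8. Only 47 of the 1222 words of 50 nt in TIMMDC1-201 (3.85%) are absent from TIMMDC1-208. TIMM44 (chr19:7926718-7943667, minus strand) was led by TIMM44-203 (475 and 853), likewise a decay target, with 16.9 and 9.29 for the canonical TIMM44-201. TIMM44-203 has 3 nt outside the canonical exons, and 50 of its 1748 words of 50 nt (2.86%) are absent from TIMM44-201, so few words of that length tell them apart. TIMM8B and TIMM23B, described above, were the others, TIMM23B with no protein-coding transcript listed.

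The peptidase genes were split in a way that changed with the library. PMPCA was led by the decay target PMPCA-203 in replicate 1 (1640 estimated counts, against 1338 for PMPCA-201) and by PMPCA-201 in replicate 2 (2387 against 1566). PMPCA-203 skips 1 exon and has 46 of 1938 words (2.37%) of its own. PMPCB was led by PMPCB-202 in replicate 1 (1458 against 1234 for the decay target PMPCB-205) and by PMPCB-205 in replicate 2 (1169 against 1058). Only 52 of the 1460 words in PMPCB-205 (3.56%) are absent from the canonical PMPCB-201. Both libraries had the same leading transcript in 26 of 32 import genes (81.2%), beside 82.0% of all genes with more than 1 transcript, and the others were TOMM40, TIMM10, TIMM21, DNAJC19, PMPCA and PMPCB.

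Retained-intron models held over 50% of the mean length-normalised level in 3 genes, with TOMM22 over 50% in replicate 2 only. The share of all protein-coding genes over this limit was not computed, so this count does not set the import genes apart. By normalised counts without length, protein-coding transcripts held over 50% of TOMM22 and GRPEL1 in both libraries, and under 50% of TIMM21. TOMM22-202 held 49.1% and 52.8% of the level of TOMM22 (623 and 712 estimated counts against 1676 and 1654 for TOMM22-201), GRPEL1-203 held 59.4% and 61.7% of that of GRPEL1, and in TIMM21 the models TIMM21-202, TIMM21-205 and TIMM21-206 left 32.5% ± 7.41 to protein-coding transcripts. In TIMM50 the decay target TIMM50-218 held 33.8% and 32.7% of the level with 587 and 631 estimated counts, while the protein-coding TIMM50-219, of 5037 nt, had 2465 and 3310. In all, 24 transcripts of other classes in 18 import genes led their gene or held at least 20% of its level in a library. The share of all genes with such a transcript is not given here, so this count does not set the import genes apart. Of the 24, those not described elsewhere were DNAJC19-202, TIMM17A-202, TIMM29-202, TIMMDC1-209, TIMM9-210 and TOMM40L-206.

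TOMM20-203 shows how a small count moves a level. With 365 nt and no defined coding sequence, it went from 126 to 390 estimated counts, and from 9.52% to 28.1% of the level of TOMM20, while TOMM20-201 had 9170 and 7672.

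The libraries differed in a way that followed base composition. On the log2 scale of the normalised counts, replicate 2 over replicate 1, no import gene with the minimum count differed by more than 2-fold (0 of 35), beside 1.95% of protein-coding genes (1.20% higher and 0.749% lower in replicate 2). The import genes ran from -0.57 for TIMM9 to 0.52 for TIMM23B, with a median of -0.23, and 12 of 35 (34.3%) were higher in replicate 2, beside 42.0% of all. All 8 import genes with a GC content of the canonical transcript of at least 55% were higher in replicate 2, by 0.10 to 0.33, with a median of 0.23. Of 14 with a GC content under 45%, 1 was higher, TIMM23B, and the median was -0.33. The medians of all protein-coding genes in these classes were 0.26 and -0.34, and 3843 of 4381 and 328 of 5132 of them were higher. Between 45% and 55%, 3 of 13 import genes were higher, beside 1601 of 4242 protein-coding genes.

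Across genes, GC content and the log2 difference had a Pearson r of 0.803 and a Spearman rho of 0.837 over the 35 import genes, and 0.694 and 0.774 over 13755 protein-coding genes. These are correlations over genes that share the same 2 libraries. Taken relative to the median of their GC class, the import genes had a median absolute difference of 0.08 instead of 0.25, and TIMM23B was at 0.86. GC content was unequal within some pairs of partners. TIMM17B (61.9% GC) and TIMM13 (62.1%) were higher in replicate 2, where TIMM17A (40.4%), TIMM9 (41.3%) and DNAJC19 (38.98%) were lower. The log2 ratio of TIMM17A to TIMM17B had an SD of 0.45. That of DNAJC19 to PAM16 (60.2%) had an SD of 0.61, or 0.39 by canonical length. MTX1 (63.4%) to MTX2 (41.9%) had an SD of 0.32. The largest SD of the 12 pairs, 0.67, was that of TIMM23 (47.6%) to TIMM23B (43.4%). Whether GC content was the cause was not tested.

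**Figure D4:**
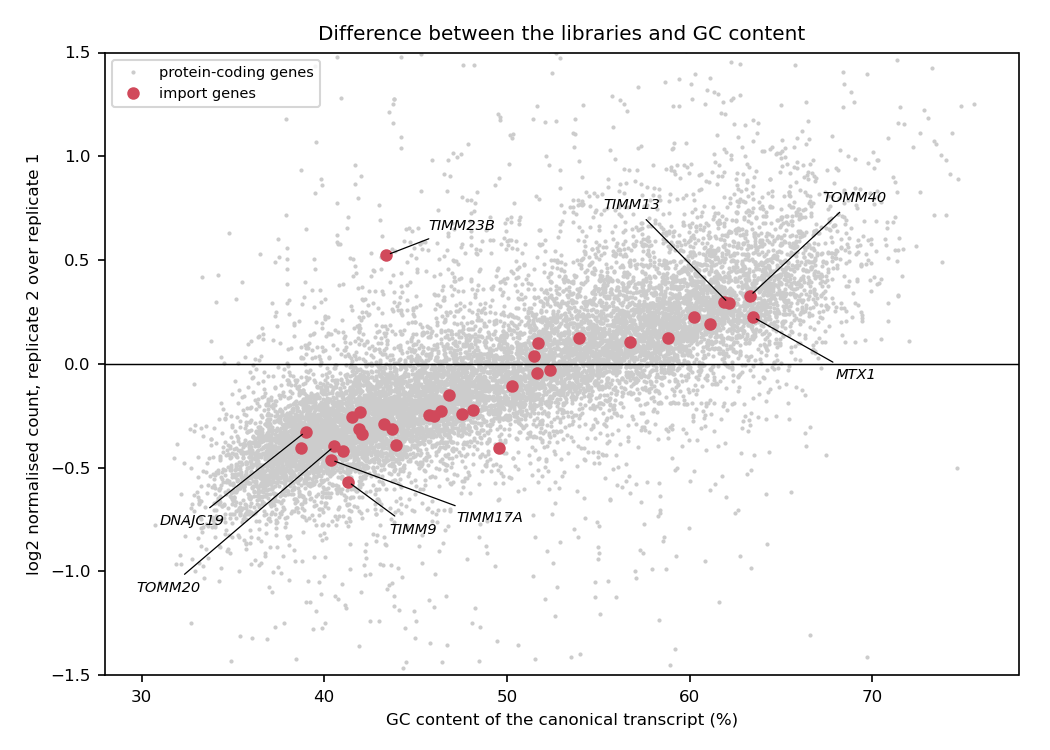
Log2 normalised count, replicate 2 over replicate 1, against GC content of the canonical transcript (%), with each protein-coding gene as a grey dot and the 35 import genes as red points, 57 genes lying outside the axes. The import genes follow the slope of all genes with GC content, from -0.57 for TIMM9 to 0.33 for TOMM40, and TIMM23B at 0.52 lies above it.

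Levels of the import genes in the 2 libraries were alike in rank, with a Pearson r of 0.978 and a Spearman rho of 0.970 on the log2 scale over 35 genes, and 0.984 for both over 13755 genes. Between coding length and log2 level the 35 genes had an r of -0.07 and a rho of -0.05, although the 13 genes coding for less than 500 nt had a median of 60.3 and the 22 longer ones of 31.7. The genes lie on 19 chromosomes, with 5 on chromosome 19 (TOMM40, TIMM13, TIMM29, TIMM50 and TIMM44), and 15 share exon sequence with a gene on the opposite strand. Overlaps as short as 3 nt (TOMM6 with USP49) were counted. For both counts the share of all protein-coding genes was not computed, so neither sets the import genes apart.

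RefSeq promoter windows, from 250 bases before to 50 after the start on GRCh38, could be matched for 33 of the 36. On either strand, the core of the ETS family site, CCGGAAGT, was present in 8 of them (24.2%) and in 6.32% of 15345 protein-coding genes, and the consensus site of NRF1, a regulator of nuclear genes for mitochondrial proteins, in 6 (18.2%) and 8.60%. TOMM20 and TIMM29 had both. AAGATGGC, for YY1, was found in TIMM50, PMPCA and TOMM40L (9.09% beside 3.97%), CCAAT in 11 (33.3% beside 36.6%) and TATAAA in none (beside 9.63%). These are matches of letters in 1 window and no evidence of binding, and the list was not tested against other lists.

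Of the other genes of the pathway, 17 were followed, among them the disulfide relay that folds the small TIMs. Their levels ran from 0.345 and 0.305 for DNAJC15, a paralogue of DNAJC19, to 387 and 286 for HSPD1, the matrix chaperonin. CHCHD4, the oxidoreductase that traps small TIMs, was at 31.2 and 24.4, and its partner GFER at 13.03 and 20.04. ROMO1 was at 109.2 and 118, GRPEL2, the second exchange factor, at 31.5 and 26.6, and MTX3 at 7.25 and 6.49. Per length GRPEL2 was below GRPEL1 and MTX3 below MTX1 in both libraries, whereas by estimated count both were above: GRPEL2 had 3264 and 2673 against 1628 and 1558 for GRPEL1, and MTX3 had 1430 and 1400 against 809 and 1079 for MTX1.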

How the data were processed

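The 2 HEK293 Flp-In T-Rex libraries form the data. Per the labels, rRNA-depleted total RNA was made into TruSeq libraries, and the submitters' processing notes list FastQC, STAR 2.7.0d, RSEM 1.3.3 and R 3.6.3. The authors deposited, per transcript, an RSEM estimated count and a normalised signal, which was found to be that count divided by 1 size factor per library (0.945 and 1.08). Strand setting was not given in the sources used here.

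Of 206696 transcripts, 202217 had an identifier, version left aside, in GENCODE v44 (GRCh38), holding 96.9% and 96.8% of counts. Of 217 transcripts of the import genes, 47 had another version, among them all 34 listed canonical ones, so lengths may differ from those the counts were made with. Gene sums, levels, percent shares and log2 ratios were computed from the deposited counts with Python 3.11.15 and pandas 2.3.3. Genes needed 10 estimated counts in both libraries for comparisons over genes. Calculations were tested on simulated data. Genes, lists and pairs were chosen with earlier results of these data known. All import genes were described. Transcripts not annotated protein-coding were named if they led a gene or held 20% of its level in a library. Other transcripts were named by choice, and not every leading transcript was named. Alternatives were other length corrections, transcript classes, minimum counts, scalings and leaving out a library. A table with METTL8 transcripts only was not used.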

Additional observations from a re-analysis of the deposited data

How the results depend on the processing

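No paired analysis was possible because the labels give 1 group only. The summed level of the import genes moved with its scale: 1297 with protein-coding transcripts only, 1111 by effective length, 1641 by the length of the canonical transcript, 4227 when scaled over protein-coding genes, and 71836 as normalised counts without length. The median percentile among protein-coding genes, 85.3 ± 1.47 over the libraries, was 82.5 with protein-coding transcripts only, 70.3 with normalised counts and 89.8 with no minimum count. The median protein-coding share, taken over the 36 genes in each library and then averaged, was 79.0% ± 5.34 (77.0% when each gene was averaged first), and was 87.5% by normalised counts and 85.5% with transcripts of at least 1 count in both libraries. With protein-coding transcripts only, 1 of 34 genes, DNAJC19, differed over 2-fold between libraries.

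TIMM9 to TIMM10, -0.02 in log2, turned to 0.28 by normalised counts, was -0.62 and larger than the spread by canonical length, and ranged from -0.29 to 0.26 when 1 library was left out. PMPCA to PMPCB was 1.14, larger than the spread, by canonical length. MTX1 to MTX2 was -0.048 by canonical length and ranged from -0.10 to 0.35 when 1 library was left out. Of 59 alternatives over the 12 pairs, 55 had the direction and the call of the value reported; TIMM23 to TIMM23B had no value with protein-coding transcripts only, since TIMM23B has none listed. Chosen after seeing the data, 4 to 7 of the 8 separable neighbouring pairs kept their direction and call, the count of genes with a protein-coding share under 50% was 5 instead of 8 by normalised counts, and no gene was over 2-fold relative to its GC class. The causes of these moves were not tested beyond the construction of each alternative. With 2 libraries, differences smaller than their spread were not detectable.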
